A study of Mus musculus with 10 samples.

Results

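The genes described here are those whose symbol begins with Mmp, Adamts or Timp followed by a digit, with the Adamtsl genes left out. There were 37 of them among 18194 genes on the array, measured by 70 of its 45101 probe sets: 29 for 18 matrix metalloproteinases, 28 for 15 ADAMTS proteases and 13 for 4 tissue inhibitors of metalloproteinases. RNA from mouse osteoblasts, which lay down bone, was hybridised to 10 Affymetrix arrays, and the values are log2 MAS5 signal. Osteoblasts carried osteoblast-specific constitutively expressed β-catenin (active β-catenin, 3 arrays) or an osteoblast-specific deletion of FoxO1 (FoxO1 deleted, 3 arrays), or were wild type (4 arrays). All came from mice of the background strain given as C5BL6, aged 2 to 3 days, with sex recorded as undetermined. The promoter that drives each osteoblast-specific change is not named in the labels, nor is it stated if a sample stands for 1 animal, a pool or a culture. The p-values therefore reflect no more than the spread among these arrays, which may be technical.

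Matrix metalloproteinases (MMPs) and ADAMTS proteases are zinc-dependent enzymes that cut collagens, proteoglycans and other proteins of the extracellular matrix. Most are secreted as inactive proenzymes, and the membrane-type MMPs stay at the cell surface. The tissue inhibitors of metalloproteinases (TIMPs) bind the active site of these enzymes. In growing bone they take part in the removal of calcified cartilage, in remodelling of the collagen matrix and in the release of growth factors stored there. β-catenin carries canonical Wnt signals to the nucleus, where it acts with TCF/LEF factors, while FoxO1 regulates genes of metabolism and of the response to oxidative stress.

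A promoter window of 300 bases, 250 before and 50 after the annotated start, was found in the RefSeq table of build GRCm38.p6 for 23 of the 37 genes. Windows are printed for Timp1 and Adamts9, the 2 genes with a probe set that passed the test in any comparison, and for Mmp13, the collagenase that osteoblasts make. Capitals mark matches on either strand to the TCF/LEF core (CTTTGA or CTTTGT), the FoxO motif GTAAACA, the AP-1 motif TGANTCA, the RUNX core TGTGGT and the TATA box TATAAA. They lie at chrX:20869916-20870215 on the plus strand for Timp1, chr6:92943485-92943784 on the minus strand for Adamts9 and chr9:7272264-7272563 on the plus strand for Mmp13, each written 5′ to 3′ in the direction of the gene.
Timp1: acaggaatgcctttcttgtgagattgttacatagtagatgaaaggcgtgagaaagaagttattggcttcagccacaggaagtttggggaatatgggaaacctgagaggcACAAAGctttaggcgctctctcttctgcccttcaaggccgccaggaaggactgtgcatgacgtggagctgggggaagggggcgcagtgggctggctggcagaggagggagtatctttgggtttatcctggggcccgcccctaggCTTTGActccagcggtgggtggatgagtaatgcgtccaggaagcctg
Adamts9: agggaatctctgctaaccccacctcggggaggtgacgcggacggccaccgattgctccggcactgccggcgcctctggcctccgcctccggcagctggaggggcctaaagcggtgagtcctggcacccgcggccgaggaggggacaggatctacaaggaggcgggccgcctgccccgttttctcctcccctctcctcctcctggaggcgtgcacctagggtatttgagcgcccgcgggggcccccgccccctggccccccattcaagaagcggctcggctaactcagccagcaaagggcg
Mmp13: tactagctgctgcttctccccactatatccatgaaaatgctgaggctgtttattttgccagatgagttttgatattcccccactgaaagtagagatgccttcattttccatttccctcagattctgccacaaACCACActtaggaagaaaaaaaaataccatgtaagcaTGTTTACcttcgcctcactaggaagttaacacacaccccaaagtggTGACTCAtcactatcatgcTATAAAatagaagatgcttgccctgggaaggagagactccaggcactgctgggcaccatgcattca
The Timp1 window holds a TCF/LEF core 141 bases before the start on the opposite strand and another 4 bases after it. The Mmp13 window holds the RUNX core 118, the FoxO motif 81, the AP-1 motif 35 and the TATA box 16 bases before the start. None of these letters occur in the Adamts9 window, and no match in the 3 windows overlaps another.

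Over all 32851 promoter windows of the same length, 31.2% held the TCF/LEF core, 3.65% the FoxO motif, 7.81% the AP-1 motif, 16.8% the RUNX core and 13.6% the TATA box. Of the 23 member windows, 9 held the TCF/LEF core, 2 the FoxO motif (Mmp10 and Mmp13), 8 the AP-1 motif, 5 the RUNX core and 10 the TATA box. Most of these matches lay in 9 neighbouring MMP genes on chromosome 9, from Mmp13 to Mmp7. In that cluster all 9 windows held the TATA box, 8 the AP-1 motif (Mmp8 did not) and 7 the TCF/LEF core, against 1, 0 and 2 of the other 14 member windows. Of the 9 cluster genes, Mmp13 and Mmp8 were the only ones with signal high enough to be tested. A match describes the letters and shows neither binding nor regulation.

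Array medians lay between 7.02 and 7.22. Wild type 1 and 2 (r = 0.988) and wild type 3 and 4 (r = 0.987) were pairs of closely similar arrays, with r of 0.971 to 0.972 between the pairs. The pairs also differed in Xist, the RNA that coats the inactive X chromosome. Xist signal was 14.05 to 14.43 in FoxO1 deleted 2 and 3 and in wild type 3 and 4, and at most 8.96 in all active β-catenin arrays, FoxO1 deleted 1 and wild type 1 and 2. Eif2s3y, a gene of the Y chromosome, was at 2.84 to 4.34 in the arrays with high Xist signal and at 10.78 to 11.29 in the others. By both genes the low-Xist arrays read as male and the high-Xist arrays as female. All active β-catenin arrays were thus of the male class, and sex and genotype were partly confounded. All 5 osteoblast markers with a probe set assigned to 1 gene alone lay above the table median of 7.15 in every array. Markers of other cells were present too: of 10 neutrophil markers, the summed linear signal was 2820 to 3870 in active β-catenin, 1364 to 10432 in FoxO1-deleted and 13915 to 29916 in wild-type arrays. Over 6 skeletal muscle markers it was, in the same order, 52352 to 102936, 55513 to 95930 and 46323 to 94159, lowest in wild type 1 and 2. Macrophage markers (7 genes) gave 18734 to 19846, 16124 to 21621 and 16369 to 19055, and erythroid markers (5 genes) 588 to 1045, 576 to 1836 and 1384 to 3851. The part of these cells in the member values was not tested. The other 3 markers of the 8 listed for osteoblasts had no probe set assigned to 1 gene alone, and probe sets of several genes were not used.

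Probe sets were tested where the third-highest of the 10 values lay above the table median, so 3 arrays of 1 genotype were enough to keep one. This kept 49 of the 70 probe sets and 26 of the 37 genes: 18 probe sets of 10 MMPs, 21 of 13 ADAMTS proteases and 10 of 3 TIMPs. Adamts16 (1441841_at, 6.95), Mmp24 (1417678_at, 6.96) and Adamts8 (7.09) fell just below the median by that value, and Adamts10 (1441309_at, 7.18), Mmp24 (1448806_at, 7.21) and Adamts7 (7.24) just above. The 11 genes with no probe set kept were Adamts8, Adamts19, Mmp1a, Mmp1b, Mmp3, Mmp7, Mmp10, Mmp12, Mmp19, Mmp20 and Timp4, whose values ran from -0.71 to 7.36. Both probe sets of Timp4 stayed between 4.13 and 6.17 in all 10 arrays. Of the genes kept, 12 had a mean above 10 by their brightest probe set, among them Mmp2, Mmp9, Mmp13, Mmp14, Adamts5, Adamts9, Timp1, Timp2 and Timp3. Signals of different probe sets share no common scale, so levels are compared only across arrays within a probe set.

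In osteoblasts with active β-catenin, set against wild type, Timp1 fell to 0.746 of its wild-type level, and no protease passed. That was 1 of the 49 probe sets (adjusted p under 0.05, limma with Benjamini-Hochberg adjustment over all 20127 probe sets tested), beside 0.507% of all probe sets tested (0.397% higher and 0.109% lower). The difference was above 0 for 27 of 49 members and for 49.2% of all. At an unadjusted p under 0.05 there were 12 of 49 (24.5%, against 11.4% of all): Adamts9, Mmp14, Timp2 and Timp3 with higher signal, and Mmp16, Mmp8 and Timp1 with lower. These 12 probe sets came from 7 genes. Probe sets of the same gene are not independent, so the shares here and in the other comparisons do not count separate genes. For 10 of 49 (20.4%, against 13.2% of all) no array of active β-catenin lay within the range of wild type or the reverse: 5 were higher (10.2%, against 6.39% of all) and 5 lower (10.2%, against 6.81%). The median log2 difference was 0.03 over the 49 members, 0.23 over the 10 TIMP probe sets, -0.01 over the 21 ADAMTS and 0.01 over the 18 MMP probe sets, beside -0.0033 over all probe sets tested.

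In FoxO1-deleted osteoblasts, set against wild type, none of the 49 members passed by limma's adjusted p, and 0.0149% of all probe sets tested did. An unadjusted p under 0.05 was reached by 11 members (22.4%, against 7.9% of all), from Mmp2, Mmp23, Adamts6, Adamts12 and Timp2 with higher signal and Mmp8, Mmp9, Mmp16, Adamts7 and Adamts9 with lower. For 9 of 49 (18.4%, against 9.07% of all) the arrays did not overlap, 8 of them higher (16.3%, against 4.1% of all) and 1, an Adamts9 probe set, lower (2.04%, against 4.96%). The median log2 difference was 0.14 over the ADAMTS, 0.16 over the TIMP and 0.0042 over the MMP probe sets, and the difference was above 0 for 33 of 49 members and for 47.1% of all probe sets tested.

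Between active β-catenin and FoxO1-deleted osteoblasts, 2 of the 49 passed, with 0.442% of all probe sets tested (0.407% higher and 0.0348% lower). Timp1 was lower and 1 of 3 Adamts9 probe sets was higher in active β-catenin. An unadjusted p under 0.05 was reached by 8 members (16.3%, against 7.65% of all), and 11 (22.4%, against 9.6% of all) had arrays that did not overlap. Of those 11, 4 were higher in active β-catenin (8.16%, against 5.42% of all), from Adamts9, Mmp9 and Timp2, and 7 lower (14.3%, against 4.18%), from Adamts3, Adamts6, Adamts15, Mmp16, Timp1 and Timp2. The difference was above 0 for 21 of 49 members and for 51.6% of all. The 3 comparisons share arrays in pairs and are not independent of each other.

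**Figure D1:**
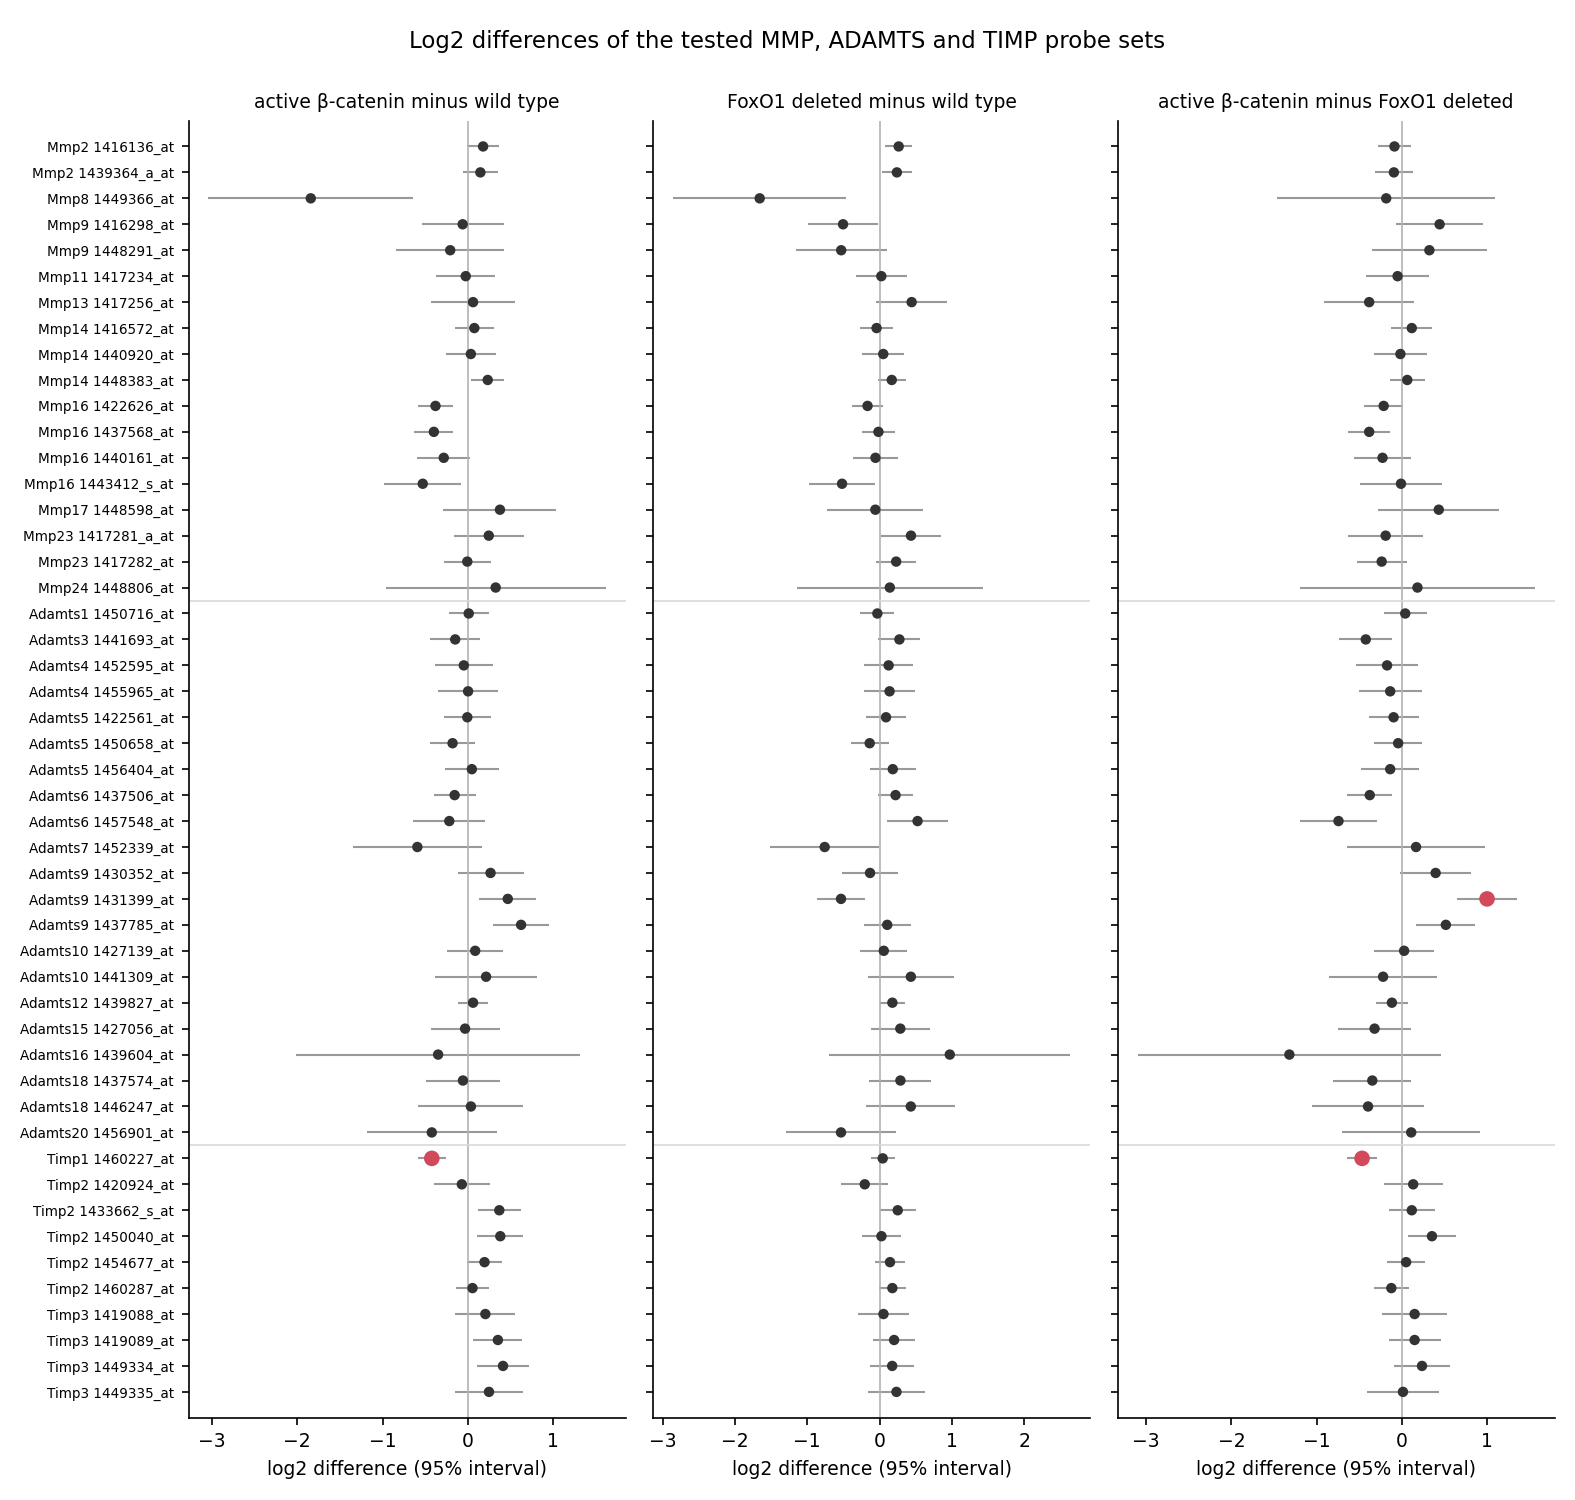
Log2 differences (horizontal axis) of the 49 tested probe sets (rows), in the panels for active β-catenin minus wild type, FoxO1 deleted minus wild type and active β-catenin minus FoxO1 deleted, with 95% intervals of the fit. Red points passed at an adjusted p under 0.05 and are Timp1 in the panels of active β-catenin and Adamts9 1431399_at in the panel of active β-catenin minus FoxO1 deleted.

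Among the collagenases, Mmp13 is made by osteoblasts and hypertrophic chondrocytes and cuts fibrillar collagen. Mmp13 (1417256_at) measured 14.38, 14.07 and 13.58 in active β-catenin, 14.12, 14.19 and 14.87 in FoxO1-deleted and 14.25, 14.17, 13.74 and 13.64 in wild-type osteoblasts. FoxO1 deleted 3 was the highest array, and all 3 genotypes overlapped. The log2 difference was 0.06 (adjusted p = 0.954) for active β-catenin minus wild type and 0.44 (95% interval -0.05 to 0.94, adjusted p = 0.66) for FoxO1 deleted minus wild type, by limma. Markers of chondrocytes had a summed signal of 21867 to 29431 in active β-catenin, 21005 to 57254 in FoxO1-deleted and 12839 to 19470 in wild-type arrays over 12 genes, with Col10a1 below the median in every wild-type array. FoxO1 deleted 1, not 3, had the highest of these sums, and the part of chondrocytes in Mmp13 was not tested.

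Mmp8, the collagenase stored in neutrophil granules, had low signal and, of the tested MMP probe sets, the widest differences from wild type. It measured 6.81, 5.76 and 5.87 in active β-catenin, 5.0, 7.68 and 6.31 in FoxO1-deleted and 8.64, 8.33, 7.64 and 7.34 in wild-type osteoblasts. The active β-catenin arrays all lay below every wild-type array, while FoxO1 deleted 2 lay inside the wild-type range. The log2 difference from wild type was -1.84 (SE 0.55, adjusted p = 0.188) for active β-catenin and -1.66 (SE 0.55, adjusted p = 0.518) for FoxO1 deleted, neither past the threshold. Without FoxO1 deleted 1 the FoxO1 difference was -0.99, and without FoxO1 deleted 2 it was -2.33. All active β-catenin values lay below the table median of 7.15 and the probe set was kept through its wild-type signal, so the size of the difference is uncertain. Markers of neutrophils were lower too: all 8 tested lay lower in active β-catenin without overlap, against 6.81% of all probe sets tested. Lcn2 and Olfm4 fell (adjusted p = 0.0227 and 0.0431, limma). Both, and Mpo among the 8, were kept only through their signal in the other genotypes. The filter thus favoured markers that were high outside active β-catenin, so neither these calls nor the count of 8 is independent support. Lcn2, Olfm4, Mpo, Elane and Cd177 were below the table median in every active β-catenin array, and FoxO1 deleted 1, lowest for Mmp8, also had the lowest neutrophil sum. The part of neutrophils in the Mmp8 values was not tested, and in bulk RNA fewer cells of a type and less RNA per cell cannot be told apart.

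**Figure D2:**
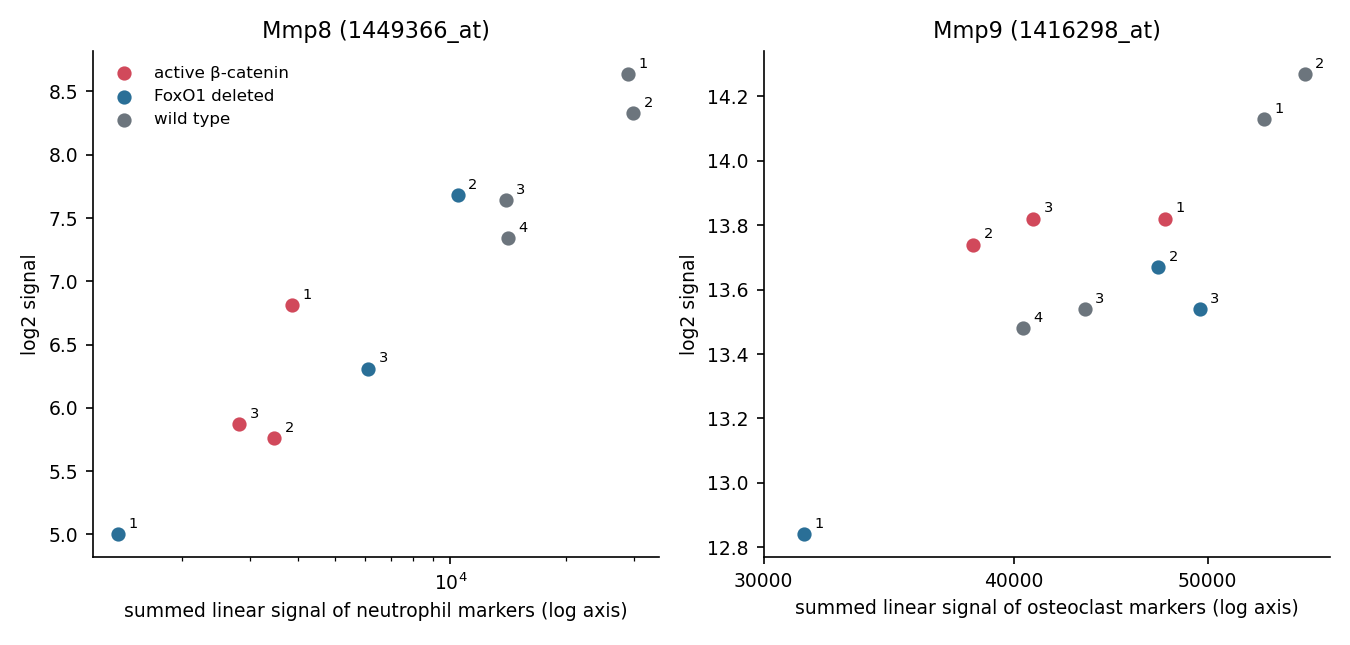
Log2 signal of Mmp8 and Mmp9 in each of the 10 arrays (vertical axes) against the summed linear signal of 10 neutrophil markers (left panel) and of 10 osteoclast markers (right panel), both on log axes; numbers are replicate numbers. Mmp8 and the neutrophil sum are both lowest in FoxO1 deleted 1 and highest in wild type 1 and 2, and Mmp9 and the osteoclast sum are lowest and highest in the same arrays. Between these arrays Mmp9 and the osteoclast sum differ in order. Active β-catenin 2 has a sum of 38191 with Mmp9 at 13.74, and FoxO1 deleted 3 has 49547 with Mmp9 at 13.54.

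The gelatinases Mmp2 and Mmp9 digest denatured collagen and type IV collagen. Mmp2 (1416136_at), a product of mesenchymal cells, measured 13.74, 13.64 and 13.54 in active β-catenin, 13.72, 13.62 and 13.84 in FoxO1-deleted and 13.42, 13.36, 13.58 and 13.49 in wild-type osteoblasts. All FoxO1-deleted arrays lay above all wild-type arrays, by 0.26 on average (95% interval 0.08 to 0.45), but the adjusted p was 0.506 by limma. Its other probe set (1439364_a_at) differed by 0.24 in the same direction, with an adjusted p of 0.588. Active β-catenin overlapped wild type, with a difference of 0.18 (adjusted p = 0.456) for 1416136_at.

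Mmp9, which osteoclasts and neutrophils also make, measured 13.82, 13.74 and 13.82 (1416298_at) in active β-catenin, 12.84, 13.67 and 13.54 in FoxO1-deleted and 14.13, 14.27, 13.54 and 13.48 in wild-type osteoblasts. The wild-type arrays split into the closely similar pairs, with wild type 1 and 2 at the top, and FoxO1 deleted 1 stood alone at the bottom. The differences from wild type were -0.06 (adjusted p = 0.951) for active β-catenin and -0.51 (adjusted p = 0.621) for FoxO1 deleted, or -0.25 without FoxO1 deleted 1. Its second probe set (1448291_at) measured 12.78, 12.57 and 12.87 in active β-catenin, 11.72, 12.81 and 12.72 in FoxO1-deleted and 13.41, 13.38, 12.55 and 12.45 in wild-type osteoblasts, in the same pattern. Osteoclast markers summed to 38191 to 47598 in active β-catenin, 31446 to 49547 in FoxO1-deleted and 40428 to 55904 in wild-type arrays over 10 genes. Calcr, the calcitonin receptor, was below the median in every active β-catenin and wild-type array, and none of the 9 osteoclast markers tested passed in any comparison. None of the 9 averaged higher in active β-catenin than in wild type, and 1 did in FoxO1 deleted, against 49.2% and 47.1% of all probe sets tested. The median log2 differences of these markers from wild type were -0.32 and -0.22. Their part in Mmp9 was not tested.

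No probe set of the membrane-type enzymes passed the test in any comparison. Mmp14, the surface collagenase that activates Mmp2, measured 14.00, 14.01 and 13.71 (1448383_at) in active β-catenin, 13.88, 13.74 and 13.91 in FoxO1-deleted and 13.63, 13.66, 13.75 and 13.66 in wild-type osteoblasts. All arrays of both altered genotypes but active β-catenin 3 and FoxO1 deleted 2 lay above the wild-type range. The difference from wild type was 0.23 (SE 0.09, adjusted p = 0.317, limma) for active β-catenin and 0.17 (adjusted p = 0.66) for FoxO1 deleted, and the other 2 probe sets differed from wild type by 0.08 at most in either genotype.

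Mmp16, another membrane-type enzyme, averaged lower in active β-catenin than in wild type by all 4 of its probe sets, with log2 differences from -0.53 to -0.28, and none passed (adjusted p from 0.124 to 0.488, limma). Its brightest set on average (1437568_at) measured 10.19, 10.60 and 10.33 in active β-catenin, 10.78, 10.61 and 10.88 in FoxO1-deleted and 10.73, 10.78, 10.80 and 10.78 in wild-type osteoblasts. The 3 active β-catenin arrays were the 3 lowest of the 10, although active β-catenin 2 came close to FoxO1 deleted 2. The difference was -0.40 from wild type (adjusted p = 0.14) and -0.38 from FoxO1 deleted (adjusted p = 0.306). A second set (1422626_at) measured 10.26, 10.45 and 10.31 in active β-catenin, 10.59, 10.63 and 10.44 in FoxO1-deleted and 10.89, 10.71, 10.71 and 10.57 in wild-type osteoblasts, so that active β-catenin stayed below wild type here too. FoxO1 deleted also averaged below wild type by all 4 sets, with log2 differences from -0.52 to -0.02, and none passed. By set 1443412_s_at the differences were -0.53 for active β-catenin and -0.52 for FoxO1 deleted, with -0.01 between these genotypes.

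Mmp23, a membrane-tethered MMP, measured 11.64, 11.25 and 10.91 (1417281_a_at) in active β-catenin, 11.46, 11.16 and 11.75 in FoxO1-deleted and 11.18, 11.28, 10.80 and 10.83 in wild-type osteoblasts. Its signal was higher in FoxO1-deleted than in wild-type osteoblasts by 0.43 (95% interval 0.02 to 0.84), with overlap and an adjusted p of 0.621 by limma. Mmp11, Mmp17 and Mmp24, the last kept by 1 of 3 probe sets, differed from wild type by -0.03 to 0.38 in active β-catenin and by -0.06 to 0.14 in FoxO1 deleted, with no adjusted p under 0.7.

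**Figure D3:**
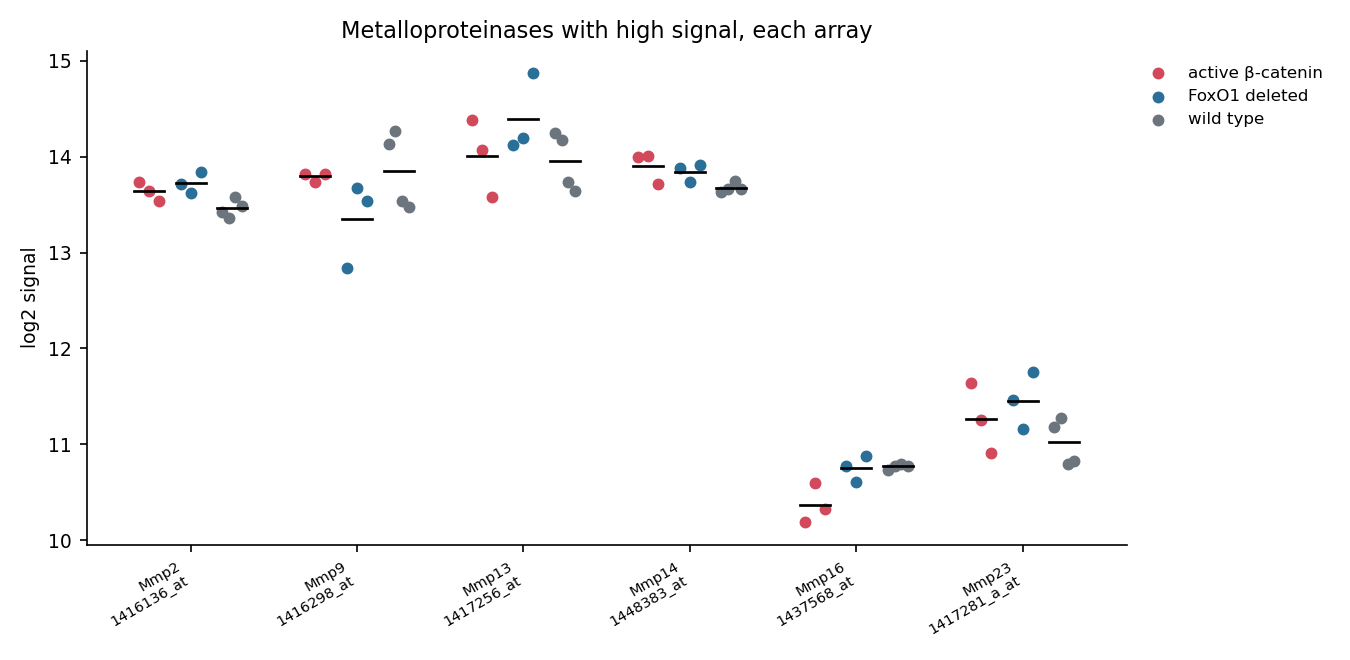
Log2 signal (vertical axis) of 6 MMP probe sets with high signal in each array, by genotype, with a bar at each genotype's mean. Mmp16 is lowest in the 3 active β-catenin arrays, Mmp2 is higher in all FoxO1-deleted than in all wild-type arrays, and Mmp9 and Mmp13 spread widely within genotypes.

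The aggrecanases Adamts1, Adamts4 and Adamts5, which cut the proteoglycans aggrecan and versican, showed small differences between genotypes. Adamts1 (1450716_at) measured 9.59, 9.58 and 9.5 in active β-catenin, 9.46, 9.74 and 9.35 in FoxO1-deleted and 9.56, 9.43, 9.61 and 9.59 in wild-type osteoblasts. The 95% interval of its difference ran from -0.22 to 0.24 for active β-catenin and from -0.27 to 0.21 for FoxO1 deleted against wild type. Over the 6 kept probe sets of the 3 genes, differences from wild type lay between -0.18 and 0.05 in active β-catenin and between -0.14 and 0.18 in FoxO1 deleted, with no adjusted p under 0.6 by limma. Adamts15, a relative of these enzymes that cuts versican, measured 7.53, 7.86 and 7.79 in active β-catenin, 7.98, 8.23 and 7.93 in FoxO1-deleted and 7.57, 7.44, 8.04 and 7.99 in wild-type osteoblasts. Each active β-catenin array lay below each FoxO1-deleted array, and both genotypes overlapped wild type, whose similar pairs lay at its lower and upper end.

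Adamts9, a versican-cutting protease, gave the largest called difference among the 49 member probe sets. By probe set 1431399_at it measured 9.67, 9.29 and 9.41 in active β-catenin, 8.76, 8.32 and 8.29 in FoxO1-deleted and 9.01, 8.94, 8.79 and 9.22 in wild-type osteoblasts. Active β-catenin arrays were the 3 highest, FoxO1-deleted arrays the 3 lowest, and wild-type arrays lay between without overlap. The means were 9.46 ± 0.19 in active β-catenin, 8.46 ± 0.26 in FoxO1-deleted (SD, n = 3 each) and 8.99 ± 0.18 in wild-type osteoblasts (SD, n = 4). The log2 difference of active β-catenin minus FoxO1 deleted was 1.00 (SE 0.16, 2.00-fold, adjusted p = 0.0221, limma), while those from wild type, 0.47 for active β-catenin (adjusted p = 0.234) and -0.53 for FoxO1 deleted (adjusted p = 0.472), did not pass.

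The other 2 Adamts9 probe sets had smaller differences. Probe set 1437785_at measured 11.58, 11.16 and 11.31 in active β-catenin, 10.63, 10.79 and 11.08 in FoxO1-deleted and 11.02, 10.78, 10.49 and 10.62 in wild-type osteoblasts. Active β-catenin was again the highest in all arrays, by 0.62 over wild type (adjusted p = 0.101) and 0.52 over FoxO1 deleted (adjusted p = 0.338), but FoxO1-deleted arrays overlapped wild type and averaged 0.11 higher. Probe set 1430352_at measured 11.29, 10.35 and 10.70 in active β-catenin, 10.46, 10.35 and 10.34 in FoxO1-deleted and 10.62, 10.67, 10.38 and 10.39 in wild-type osteoblasts. Only active β-catenin 1 and 3 stood above wild type by this set, with a difference of 0.40 from FoxO1 deleted (adjusted p = 0.678). The lower signal in FoxO1-deleted than in wild-type arrays without overlap was thus seen by 1 of the 3 probe sets.

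The called Adamts9 difference did not pass without active β-catenin 1 or 3 or without FoxO1 deleted 2 or 3, left out 1 at a time (log2 differences from 0.89 to 1.02, highest adjusted p 0.0887). With a term for Xist signal the difference was 0.87 (adjusted p = 0.445), and in low-Xist arrays, with FoxO1 deleted 1 alone for its genotype, it was 0.70 (adjusted p = 0.442). None of 7 endothelial markers passed in any comparison. Their summed signal was 7075 to 7208 in active β-catenin, 6000 to 6420 in FoxO1-deleted and 5963 to 6137 in wild-type arrays, with all 7 above the median in every array and overlap between FoxO1-deleted and wild-type sums. Their part in Adamts9 was not tested.

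**Figure D4:**
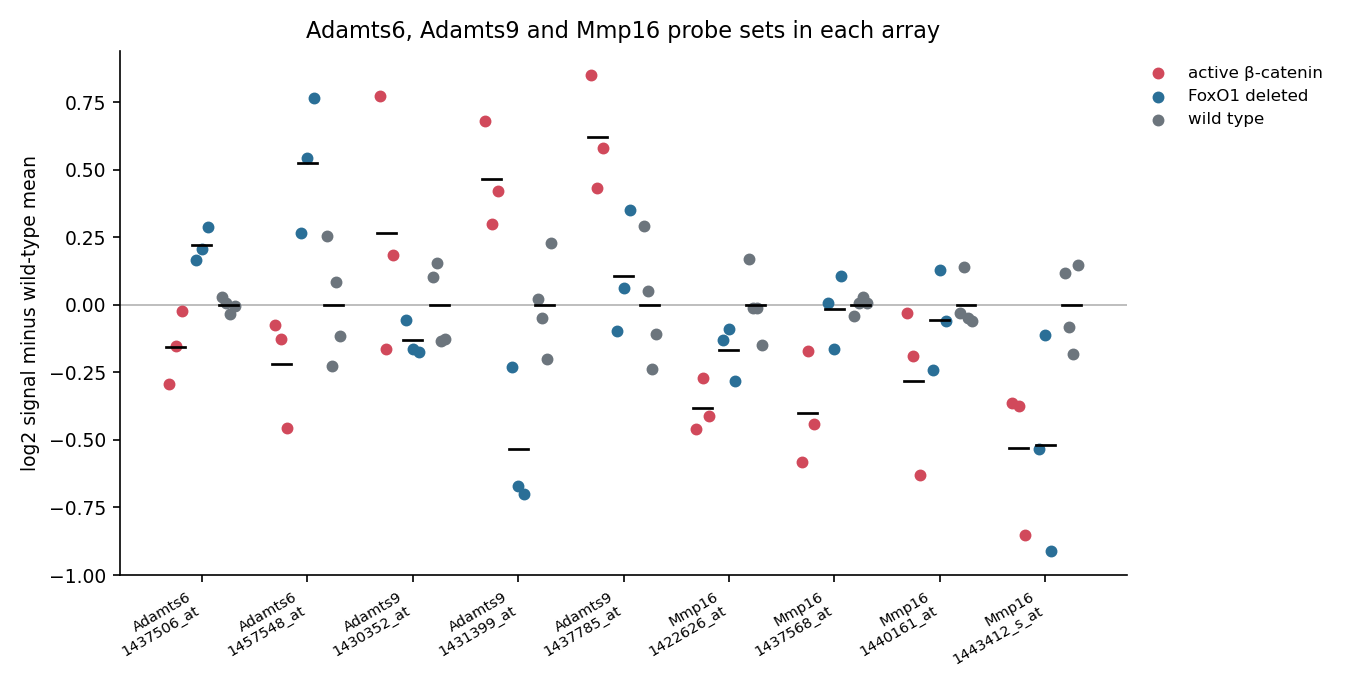
Log2 signal minus the wild-type mean of the same probe set (vertical axis) in each array for the Adamts6, Adamts9 and Mmp16 probe sets, by genotype, with a bar at each genotype's mean. For Adamts9 1431399_at the genotypes separate with active β-catenin at the top and FoxO1 deleted at the bottom, and both Adamts6 probe sets are highest in FoxO1 deleted. All 4 Mmp16 probe sets have means below 0 in active β-catenin and in FoxO1 deleted.

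Adamts3, which removes the N-terminal propeptide of procollagen, measured 9.40, 9.14 and 9.31 (1441693_at) in active β-catenin, 9.68, 9.44 and 10 in FoxO1-deleted and 9.55, 9.49, 9.35 and 9.34 in wild-type osteoblasts. Each active β-catenin array lay below each FoxO1-deleted array, with a log2 difference of -0.42 (adjusted p = 0.424, limma), and both overlapped wild type. Adamts6, whose closest relative is the fibrillin-binding Adamts10, measured 8.05, 8.19 and 8.32 (1437506_at) in active β-catenin, 8.51, 8.55 and 8.63 in FoxO1-deleted and 8.37, 8.35, 8.31 and 8.34 in wild-type osteoblasts. FoxO1-deleted arrays were above all others, and active β-catenin overlapped wild type through its array 3. The difference between active β-catenin and FoxO1 deleted was -0.38 (adjusted p = 0.377), and the second probe set (1457548_at) gave -0.74 (adjusted p = 0.27), with FoxO1 deleted again above all other arrays.

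Adamts12 and Adamts7 both cut the cartilage matrix protein COMP. Adamts12 (1439827_at) measured 11.26, 11.15 and 11.10 in active β-catenin, 11.23, 11.20 and 11.43 in FoxO1-deleted and 11.10, 11.12, 11.13 and 11.09 in wild-type osteoblasts. Its FoxO1-deleted arrays lay above all wild-type arrays, by 0.18 on average (adjusted p = 0.63, limma). Adamts7 measured 6.60, 6.27 and 7.20 in active β-catenin, 5.72, 7.16 and 6.69 in FoxO1-deleted and 7.50, 7.24, 6.95 and 7.44 in wild-type osteoblasts, on the opposite side of wild type with overlap (-0.76 for FoxO1 deleted, adjusted p = 0.63). Without FoxO1 deleted 1 that difference was -0.36. Adamts10, Adamts16, Adamts18 and Adamts20 gave no adjusted p under 0.7 in either comparison with wild type. Adamts16 spread most, at 3.58, 7.74 and 6.63 in active β-catenin, 7.54, 7.03 and 7.34 in FoxO1-deleted and 5.80, 5.82, 6.64 and 7.07 in wild-type osteoblasts, with overlap between all genotypes and active β-catenin 1 far below the other arrays.

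The inhibitors did not move as 1 group. Timp1 (1460227_at), a secreted inhibitor that acts poorly on membrane-type MMPs, measured 12.19, 12.15 and 12.37 in active β-catenin, 12.71, 12.72 and 12.68 in FoxO1-deleted and 12.60, 12.63, 12.74 and 12.67 in wild-type osteoblasts. All 3 active β-catenin arrays were below the other 7, which lay between 12.60 and 12.74. The means were 12.24 ± 0.12 in active β-catenin, 12.70 ± 0.02 in FoxO1-deleted (SD, n = 3 each) and 12.66 ± 0.06 in wild-type osteoblasts (SD, n = 4). Timp1 fell by 0.42 in active β-catenin against wild type (SE 0.07, adjusted p = 0.0322, limma) and was lower by 1.38-fold than in FoxO1 deleted (log2 difference -0.47, SE 0.08, adjusted p = 0.0263). FoxO1 deleted and wild type differed by 0.04 (adjusted p = 0.912).

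Both Timp1 calls were close to the threshold. The call against wild type remained without active β-catenin 3, FoxO1 deleted 2 or FoxO1 deleted 3, and was lost without any 1 of the other 7 arrays, where the differences ran from -0.44 to -0.38 and the adjusted p from 0.0505 to 0.123. Timp1 lies on the X chromosome, and all active β-catenin arrays had low Xist and high Eif2s3y signal, the male class, while the other genotypes were mixed. Sex and genotype were therefore partly confounded in both Timp1 calls. In low-Xist arrays alone the difference was -0.38 (adjusted p = 0.151), and with the similar wild-type arrays averaged it was -0.42 (adjusted p = 0.383). Against FoxO1 deleted the call was lost without wild type 2 or 4, active β-catenin 1 or 2, or any FoxO1-deleted array (differences from -0.48 to -0.42, highest adjusted p 0.114). The direction was the same in each of these fits.

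Timp2, the inhibitor that also links Mmp14 to pro-Mmp2, had 5 kept probe sets, of which 4 averaged higher in active β-catenin than in wild type. Its set 1450040_at measured 12.21, 12.16 and 12.10 in active β-catenin, 11.89, 11.92 and 11.60 in FoxO1-deleted and 11.71, 11.49, 12.00 and 11.91 in wild-type osteoblasts. The active β-catenin arrays were the 3 highest, by 0.38 over wild type (adjusted p = 0.228) and 0.35 over FoxO1 deleted (adjusted p = 0.51, limma). Set 1433662_s_at measured 13.75, 13.59 and 13.31 in active β-catenin, 13.34, 13.34 and 13.62 in FoxO1-deleted and 13.12, 13.08, 13.34 and 13.19 in wild-type osteoblasts, with overlap through active β-catenin 3. By the brightest set (1454677_at) the difference from wild type was 0.19 (adjusted p = 0.479), and set 1420924_at gave -0.07. Set 1460287_at gave 0.05 from wild type. By that set each active β-catenin array lay below each FoxO1-deleted array, with a difference of -0.12 (adjusted p = 0.84, limma), opposite to 1450040_at.

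Timp3, the matrix-bound inhibitor that also blocks Adamts4 and Adamts5, averaged higher in active β-catenin than in wild type by all 4 probe sets, by 0.20 to 0.41. Set 1419089_at measured 12.12, 12.18 and 12.16 in active β-catenin, 11.80, 11.80 and 12.41 in FoxO1-deleted and 11.79, 11.73, 11.90 and 11.79 in wild-type osteoblasts. Set 1449334_at measured 10.25, 10.45 and 10.12 in active β-catenin, 9.90, 9.80 and 10.41 in FoxO1-deleted and 9.80, 9.86, 9.87 and 9.92 in wild-type osteoblasts. By both sets active β-catenin lay above every wild-type array, and FoxO1 deleted 3 stood apart from the other 2 FoxO1-deleted arrays, above the active β-catenin values for 1419089_at. The differences from wild type were 0.35 (adjusted p = 0.311) and 0.41 (adjusted p = 0.251, limma), short of the threshold. Without FoxO1 deleted 3, an array outside this comparison, set 1419089_at passed at the same difference (adjusted p = 0.0444, limma). That fit called 143 of all probe sets, beside 102, and was the only setting in which a Timp3 set passed.

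**Figure D5:**
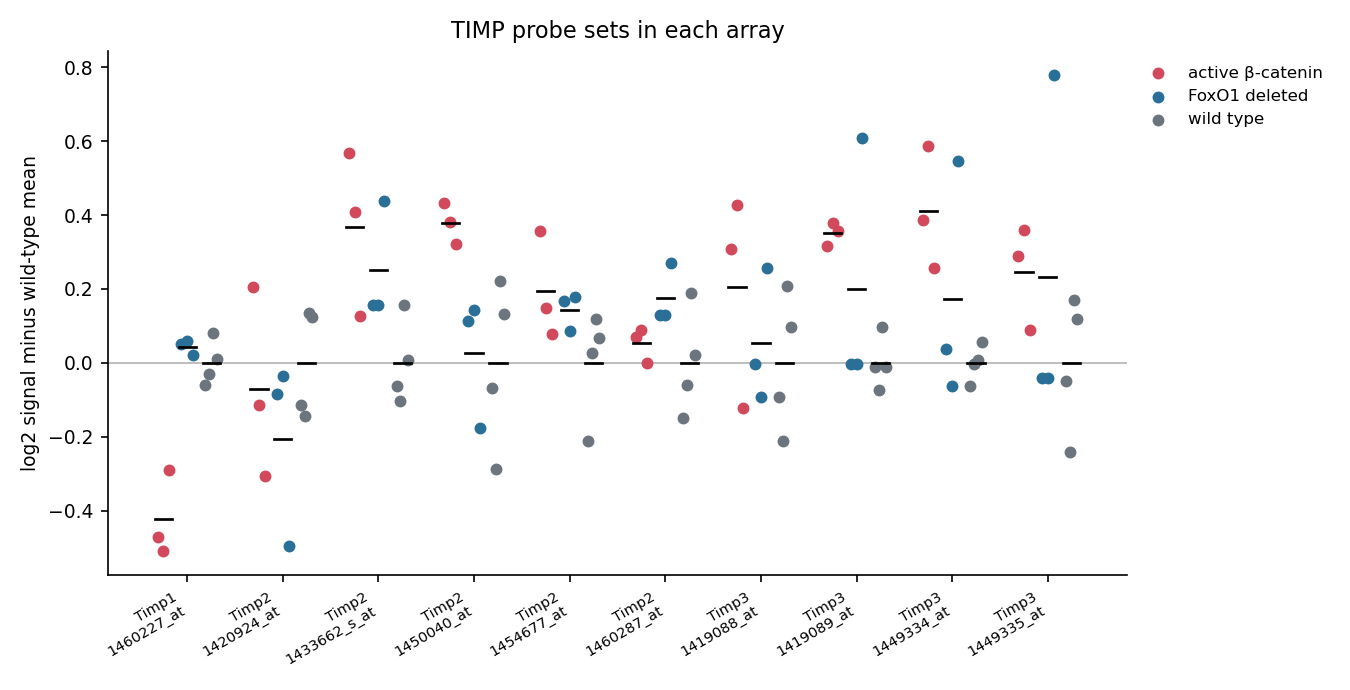
Log2 signal minus the wild-type mean of the same probe set (vertical axis) in each array for the 10 tested TIMP probe sets, by genotype, with a bar at each genotype's mean. Timp1 is below 0 in all 3 active β-catenin arrays, while the Timp3 sets have active β-catenin means above 0 and FoxO1 deleted 3 is the highest FoxO1-deleted array in each.

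Mmp9 and Mmp8 are also given by Xist signal, as differences only, because FoxO1 deleted 1 was the only low-Xist array of its genotype. In high-Xist arrays (2 FoxO1 deleted and 2 wild type) the log2 difference of FoxO1 deleted minus wild type for Mmp9 was 0.10 by 1416298_at and 0.27 by 1448291_at, and for Mmp8 it was -0.50. In low-Xist arrays it was -1.36 and -1.68 for Mmp9 and -3.49 for Mmp8, which is the distance of FoxO1 deleted 1 alone from its wild-type pair. Active β-catenin minus wild type in low-Xist arrays was -2.34 for Mmp8, and for Mmp9 it was -0.41 by 1416298_at and -0.66 by 1448291_at. The low-Xist wild type there was wild type 1 and 2 alone, a pair of closely similar arrays with the highest neutrophil and osteoclast sums. Xist signal, the wild-type pair and these sums cannot be told apart in wild type.

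Of 57 other genes of matrix proteolysis (ADAM proteases, the plasminogen system, cathepsins and cystatins, ADAMTS-like proteins, other inhibitors and receptors, and activating convertases), 45 were tested by their brightest kept probe set. In active β-catenin against wild type 2 rose, none fell and 43 did not pass, while 0.507% of all probe sets tested passed. Htra1, a secreted serine protease, measured 13.48, 13.47 and 13.49 in active β-catenin, 13.08, 12.93 and 13.23 in FoxO1-deleted and 12.81, 12.75, 13.11 and 13.04 in wild-type osteoblasts, all active β-catenin arrays being above the rest (1.47-fold over wild type, adjusted p = 0.0385, limma). A2m, α2-macroglobulin, a broad protease trap, measured 8.37, 7.92 and 8.30 in active β-catenin, 8.24, 7.54 and 6.84 in FoxO1-deleted and 6.73, 6.84, 6.41 and 6.71 in wild-type osteoblasts. Its active β-catenin arrays exceeded every wild-type array (adjusted p = 0.0415, limma), and FoxO1 deleted 1 was nearly as high. The wild-type values all lay below the table median and the probe set was kept through the other genotypes, so no fold is given.

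Against wild type no companion gene passed in FoxO1-deleted osteoblasts by limma, with 4 of 45 at an unadjusted p under 0.05, a share near the 7.9% of all probe sets tested. Between active β-catenin and FoxO1 deleted 1 companion fell, the lysosomal protease Ctsh (cathepsin H), and 44 did not pass. Of all probe sets tested 0.442% passed there. Ctsh measured 11.10, 10.93 and 10.72 in active β-catenin, 11.65, 11.61 and 11.80 in FoxO1-deleted and 11.09, 11.09, 11.34 and 11.49 in wild-type osteoblasts. FoxO1-deleted arrays were all above the rest, and the log2 difference of active β-catenin minus FoxO1 deleted was -0.77 (adjusted p = 0.0248). Adamtsl2, an ADAMTS-like protein without protease activity, measured 8.81, 8.80 and 7.99 in active β-catenin, 7.66, 6.28 and 6.25 in FoxO1-deleted and 5.17, 6.62, 6.77 and 6.56 in wild-type osteoblasts, without overlap between active β-catenin and wild type but short of the threshold (adjusted p = 0.0555). Its wild-type values too lay below the table median.

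Of 17 matrix substrates tested, 1 passed in active β-catenin against wild type, beside 0.507% of all probe sets tested. This was Col4a1, a chain of basement membrane collagen, which rose. It measured 14.08, 13.85 and 13.80 in active β-catenin, 13.69, 13.51 and 13.73 in FoxO1-deleted and 13.27, 13.12, 13.37 and 13.37 in wild-type osteoblasts, with no overlap between any of the genotypes (1.54-fold over wild type, adjusted p = 0.0173, limma). None of the 17 passed in FoxO1 deleted against wild type. The endothelial sums given beside Adamts9 were likewise highest in active β-catenin, and their part in Col4a1 was not tested.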

How the data were processed

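Total RNA of 10 mouse osteoblast samples was hybridised to Affymetrix arrays, from 500 ng per sample per the labels. The deposited log2 signal was made by the authors with MAS5 per the submitters' processing notes, which give no version, and the log2 base follows from the values. As log2 values, the mean of the linear signal after trimming 2% at each end was near 500 in every array (499.993 to 500.013). No other step between arrays and no genome build is given in the sources used here. No floor was set on low values, and precision is limited by how many arrays there were.

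Genes came from the platform annotation, which gives 1 gene for 34958 probe sets, several for 932 and none for 9211, and all 37 member genes matched RefSeq by gene ID. Probe sets with 1 gene whose third-highest value lay above 7.15 (20127) were fitted with limma 3.58.1 in R 4.3.3. The fit held 1 mean per genotype and no covariates (7 residual degrees of freedom), with eBayes and a mean-variance trend, two-sided, with Benjamini-Hochberg adjustment over all 20127. The fit was tested on simulated data.

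The members, the lists of other genes and the cell type markers were chosen with earlier results of these data known. Genes were named where a probe set passed, where the brightest probe set was among the 6 smallest p of a comparison, or for a known role in bone, cartilage or marrow. Genes of the other lists were named where they passed or had 1 of the 2 smallest p. Other probe sets of a named gene, Adamts15 and Adamts16 were shown after their values were seen. Alternatives were 2 filters, 2 scalings, 1 probe set per gene, 16 added on the linear scale, 2 variance priors, fits of 2 genotypes, array weights, the replicate number as a block, similar wild-type arrays averaged, Xist as a covariate, low-Xist arrays alone, each array left out and, added after seeing the data, high-Xist arrays alone and the difference between Xist classes.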

Additional observations from a re-analysis of the deposited data

Results flagged for a closer look

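Mmp9 was looked at again because FoxO1 deleted 1 lay far below wild type 1 and 2, which like it had low Xist signal, while the high-Xist FoxO1-deleted and wild-type arrays had close means. For probe set 1416298_at the log2 difference of FoxO1 deleted minus wild type was -1.36 in low-Xist arrays (FoxO1 deleted 1 against wild type 1 and 2) and 0.10 in high-Xist arrays (FoxO1 deleted 2 and 3 against wild type 3 and 4). The difference between these was -1.46, and for the other Mmp9 probe set, 1448291_at, it was -1.94. An interaction fit called both, but it was added after these values had been seen and its low-Xist FoxO1 group is 1 array, so it is not independent support and its p is not given. The values do not show that the effect of the deletion depends on Xist class. Mmp9 was lower by 0.69 and 0.90 in the high-Xist than in the low-Xist wild-type arrays by these sets. The osteoclast marker sum was 31446 in FoxO1 deleted 1, against 53318 and 55904 in wild type 1 and 2, and its part in the Mmp9 values was not tested.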

How the results depend on the processing

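Against the 1 member called in active β-catenin versus wild type, the count was 0 with no filter, median centring, no variance trend, similar wild-type arrays averaged or the Xist covariate, 2 in low-Xist arrays (Mmp8 and Mmp9, not Timp1, with 205 of all 20127 probe sets called, beside 102), and 0 to 2 with an array left out. The 0 members of FoxO1 deleted versus wild type became 3 in low-Xist arrays (Mmp8 and both Mmp9 sets, with 126 of all probe sets called, beside 3), and stayed 0 under the other 24 settings, leaving out each array included. The 2 of active β-catenin versus FoxO1 deleted became 1 with median centring, 1 probe set per gene, no variance trend or array weights. They became 0 with these genotypes alone, averaged wild type or the Xist covariate, and 0 to 2 with an array left out. In low-Xist arrays, again with FoxO1 deleted 1 alone, Adamts9 and Timp1 were both lost, and the log2 difference for Mmp9 1416298_at was 0.95. In the low-Xist fits FoxO1 deleted 1 is assumed to vary like active β-catenin and the closely similar wild type 1 and 2. Among companions, the 2 against wild type became 1 with the stricter filter or median centring, 4 in low-Xist arrays, 0 with no filter, no trend, averaged wild type or the Xist covariate, and 0 to 2 with an array left out. The 0 in FoxO1 deleted became 1 with array weights, and the 1 between the altered genotypes became 0 with median centring, no trend, these genotypes alone, averaged wild type, the Xist covariate or low-Xist arrays, and 0 to 1 with an array left out. The causes were not tested, beyond fewer arrays or other probe sets in the fit.

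Deviations of same-numbered samples from their genotype means had r from -0.26 to 0.24 over 9 pairs, 2 of them over 0.1. With 3 or 4 arrays a genotype this cannot decide if the numbers pair samples, and the main fit held no pairing. With the replicate block the member counts were 0 for active β-catenin versus wild type and 1 for active β-catenin versus FoxO1 deleted, the companion counts 0 and 0, and all probe sets called against wild type in active β-catenin 20, beside 102. Over all probe sets that count was also 13 with averaged wild type and 14 with the Xist covariate.

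Differences near 0 changed sign. For active β-catenin minus wild type, Mmp13 became -0.045 with array weights, -0.043 with the replicate block, -0.015 with the Xist covariate and -0.20 in low-Xist arrays (-0.125 to 0.275 with an array left out). Adamts5 became 0.027 with the replicate block, 0.079 with the Xist covariate and 0.045 in low-Xist arrays (-0.0725 to 0.0825 with an array left out), and Adamts1 -8.3e-05 with quantile normalization (-0.03 to 0.0375 with an array left out). Leaving out an array gave -0.187 to 0.077 for Mmp9 and -0.155 to 0.03 for Adamts4. For FoxO1 deleted minus wild type, high-Xist arrays gave -0.005 for Timp1 and 0.10 for Mmp9, low-Xist arrays -0.27 for Adamts9 1437785_at and -0.09 for Mmp13, array weights -0.030 for Adamts9 1437785_at, and median centring 0.01 for Adamts1. With an array left out, Adamts9 1437785_at ran from -0.0175 to 0.2075, Timp3 from -0.04 to 0.37, Adamts5 from -0.0625 to 0.2025 and Adamts1 from -0.1425 to 0.0525. For active β-catenin minus FoxO1 deleted, the Xist covariate gave 0.0033 for Mmp2 and 0.0095 for Adamts5, and median centring -0.023 for Timp3. With an array left out, Timp2 ran from -0.032 to 0.108, Timp3 from -0.123 to 0.287, Adamts5 from -0.21 to 0.055 and Adamts1 from -0.043 to 0.152.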

Other observations

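Wild-type arrays 1 and 2 were closely similar to each other, as were wild-type arrays 3 and 4, and some members differed between these pairs. The genes named here were picked after their values were seen, and no test is given. Mmp13 averaged 14.21 in wild type 1 and 2 and 13.69 in wild type 3 and 4, a gap of 0.52 on the log2 scale, against a difference of 0.06 between active β-catenin and wild type. Mmp23 (1417281_a_at) averaged 11.23 in wild type 1 and 2 and 10.82 in wild type 3 and 4. Adamts15 ran the other way, at 7.51 in wild type 1 and 2 and 8.02 in wild type 3 and 4, as did the dim Adamts16 (1439604_at), at 5.81 and 6.86. Timp1 was close in both pairs, since its 4 wild-type values lay between 12.60 and 12.74.

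In the chromosome 9 MMP cluster, Mmp13, the first gene in its order, had a mean signal of 14.10 over all arrays, and Mmp8 lay above the table median of 7.15 in every wild-type array. Mmp1a, Mmp1b, Mmp3, Mmp7, Mmp10, Mmp12 and Mmp20 were below that median in every array. The promoter windows of these 7 genes held the TATA box, as did those of Mmp13 and Mmp8.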
